A study of Mus musculus with 64 samples.

Results

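The tumour suppressor p53, its antagonist Mdm2 and 8 genes that p53 can switch on or that mark senescent and stressed cells were followed across the hearts of Pkp2-deficient mice. These 10 genes (Trp53, Cdkn1a, Cdkn2a, Mdm2, Bax, Bbc3, Ccng1, Gadd45a, Gadd45b and Phlda3) were taken by symbol from the 39152 named rows of the deposited count table. All 10 symbols were found, and the rule uses the symbols alone. Both ventricles, right (RV) and left (LV), had been taken from 32 C57BL6 mice, a model of arrhythmogenic right ventricular cardiomyopathy (ARVC), and bulk RNA sequencing gave 64 libraries.

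All animals carried homozygous floxed Pkp2 alleles (Pkp2fl/fl). In the knockout (cKO) groups a Cre recombinase driven by the alpha-myosin heavy chain promoter was activated by tamoxifen and deleted Pkp2, which encodes the desmosomal protein plakophilin-2, in cardiomyocytes. The WT group consisted of 9 Cre-negative littermates and the cKO group of 4 animals, and both had received HBSS as vehicle. The AAV_3E13 group held 8 cKO animals given an adeno-associated virus serotype 9 vector with mouse Pkp2 (AAV9:mPkp2) at 3e13 vector genomes (vg) per kg. The AAV_1E14 group held 5 animals given 1e14 vg per kg. By label both groups were dosed 1 week before tamoxifen, but descriptions of the study differ on whether this dose came before or after gene deletion. The AAV_1E14_2.5wk group held 6 animals given 1e14 vg per kg at 2.5 weeks after tamoxifen. Cre was thus carried by every cKO and vector animal and by no WT animal, and deletion of Pkp2 and presence of Cre cannot be told apart here. The cKO hearts had been collected earlier than all others, and loss of Pkp2 and age at collection cannot be told apart in any comparison with that group.

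The p53 protein is held low in unstressed cells by Mdm2, a ubiquitin ligase that is itself encoded by a p53 target gene. DNA damage, oncogene activity or oxidative stress releases p53, which then binds paired decamer motifs near genes for cell cycle arrest (Cdkn1a, encoding p21), growth control (Ccng1, encoding cyclin G1), DNA damage responses (Gadd45a) and cell death (Bax and Bbc3, the latter encoding Puma). Lasting arrest is called senescence, and p21 together with the products of Cdkn2a (p16INK4a and p19ARF) is its best known marker. Adult cardiomyocytes have largely left the cell cycle, and in the heart these genes have been studied mostly in relation to injury, ageing and heart failure.

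Libraries held between 5.34 M and 10.2 M counts after the mitochondrially encoded genes were left out (M stands for 1e6). Pkp2 averaged 150.2 CPM in WT RV and 193 CPM in WT LV, against 58.9 and 66.9 CPM in cKO, and 297 CPM or more in every vector group (CPM stands for counts per 1e6 counts, scaled between libraries). The WT RV library WT_HBSS_5819_RV held 231 CPM of atrial transcripts (Myl4, Myl7 and Sln summed), while no other library exceeded 53.5 CPM. The AAV_1E14_2.5wk libraries PKP2_m1e14_2.5wk_5814_RV and PKP2_m1e14_2.5wk_5814_LV, from 1 animal, went against each other in sex-linked transcripts. That RV library held both Xist (262 CPM) and Y-linked transcripts (296 CPM summed), and the LV library Xist (3073 CPM) and 0 CPM of Y-linked transcripts. Calls that were lost without these 3 libraries are named below.

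All 6 cardiomyocyte markers (Myh6, Tnnt2, Tnni3, Actn2, Ryr2 and Myl2) were detected in every group. Their summed level lay between 27287 and 39452 CPM in WT RV and between 7799 and 25394 CPM in cKO RV, and all 6 were called lower in cKO in both ventricles. In LV the ranges were 36675 to 43992 CPM in WT and 6648 to 17470 CPM in cKO. All 6 macrophage markers were called higher in cKO in both ventricles, with summed levels of 187 to 332 CPM in WT RV against 972 to 2634 CPM in cKO RV, and of 167 to 294 CPM against 384 to 2407 CPM in LV. Among fibroblast markers 4 of 6 in RV and 3 of 6 in LV were called higher in cKO, with none at 0 in all libraries of a group. In such bulk tissue fewer cells of a type and less RNA per cell cannot be told apart, and the part of these cell type markers in the results on the 10 genes was not tested.

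To show where p53 can be recognised at these genes, the reference sequence within 3000 bases on either side of each start site (GENCODE vM39 canonical transcript) was searched on both strands for the p53 consensus, made of paired half-sites. The 4-letter core of each half-site (C, 2 letters that are A or T, and G) had to match in full. Up to 2 mismatches over the 20 letters, all outside the cores, and a spacer of at most 1 base were allowed. A match was found at 3 of the 10 genes, and 7.92% of 21770 protein-coding genes held one. The letters in capitals are the 4-letter cores of the half-sites (GRCm39).

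Cdkn1a, chr17:29309902-29309921, plus strand: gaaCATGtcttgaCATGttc
Bax, chr7:45116503-45116523, minus strand: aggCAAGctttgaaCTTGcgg
Ccng1, chr11:40645763-40645782, minus strand: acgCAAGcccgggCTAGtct

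The Cdkn1a sequence lay 2827 bases upstream of the start of the canonical transcript and differed from the consensus at 1 letter. The Bax sequence lay 188 bases upstream, with a 1-base spacer and 2 mismatches. The Ccng1 sequence lay 366 bases downstream of the start site, within intron 1, and held 1 mismatch.

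A single half-site without mismatch was present in the promoters (250 bases before to 50 after the start site, from the GRCm39 reference) of 6 of the 10 genes and in 7.89% of promoters of protein-coding genes. These sequences are shown because they lie nearest to the starts of the genes whose expression is described, with the half-site in capitals and 10 bases on either side.

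Trp53, chr11:69471100-69471129, plus strand: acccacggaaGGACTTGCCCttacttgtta
Mdm2, chr10:117546830-117546859, minus strand: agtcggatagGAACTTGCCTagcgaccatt
Bax, chr7:45116504-45116533, minus strand: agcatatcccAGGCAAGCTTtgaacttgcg
Bbc3, chr7:16042618-16042647, plus strand: ggggctgcccGGGCATGTCTgtgccaggag
Ccng1, chr11:40646279-40646308, minus strand: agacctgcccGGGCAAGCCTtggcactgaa
Gadd45a, chr6:67014412-67014441, minus strand: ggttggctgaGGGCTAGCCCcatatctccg

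The Bax half-site overlaps the longer Bax sequence above. No full match and no promoter half-site was found for Cdkn2a (chr4:89192708-89212890), Gadd45b (chr10:80764523-80768038) or Phlda3 (chr1:135693809-135697686), which says only that these letters are not in the windows searched. A match is a description of sequence, and binding of p53 was not measured.

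Expression of the 10 genes spanned 3 orders of magnitude. By deposited TPM (transcripts per 1e6 transcripts, which corrects for length and allows genes to be compared) Ccng1 (chr11:40639377-40646148) was the highest in every group, with 241 ± 43.4 TPM in WT RV and 356 ± 32.5 TPM in WT LV (mean ± SD, n = 9). Mdm2 (chr10:117524780-117546730) followed with 29.4 ± 3.58 and 31.8 ± 3.96 TPM. The ranges of these genes were apart in WT and in all vector groups, whereas in cKO LV the lowest Ccng1 library held 54.1 TPM and the highest Mdm2 library 56.1 TPM.

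The remaining genes averaged below 10 TPM in WT. In WT RV the order was Trp53 (8.97 ± 1.66 TPM), Bax (7.58 ± 1.71), Gadd45a (4.98 ± 2.01), Cdkn1a (4.08 ± 1.56), Phlda3 (2.83 ± 1.49), Gadd45b (1.60 ± 0.366), Bbc3 (0.549 ± 0.415) and Cdkn2a (0.212 ± 0.221 TPM). Neighbours in this order lay within 1 SD of each other, apart from Bax and Gadd45a, and Gadd45b and Bbc3. In WT LV Cdkn1a (5.55 ± 2.57 TPM) was the fourth and Bax (4.53 ± 2.56) the sixth.

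In cKO RV Cdkn1a was the third with 19.0 ± 7.54 TPM and Phlda3 the sixth with 12.4 ± 3.85 TPM (n = 4), while Ccng1 was at 102 ± 51.3 TPM. Cdkn2a and Bbc3 were at the limit of detection. Cdkn2a had at most 14 counts in any library, was at 0 in 16 of 64 libraries and did not pass the filter on low counts in any comparison, so that it was not tested. Bbc3 had 453 counts over all libraries together, against 563584 for Ccng1, and passed the filter where the fit held cKO libraries, in which it was highest, and otherwise in 1 interaction fit.

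**Figure D1:**
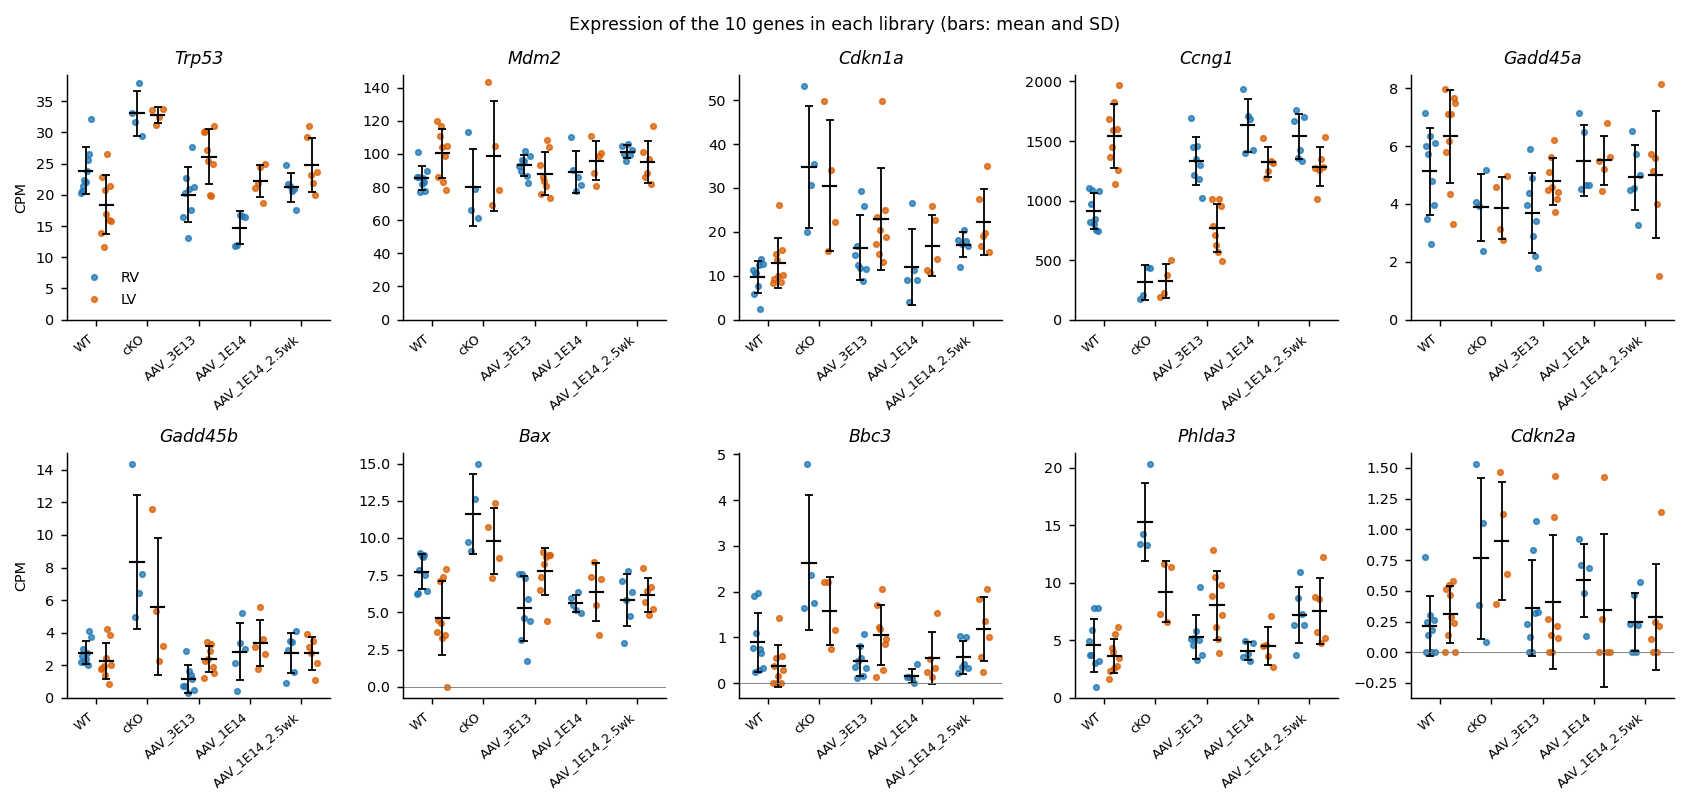
Expression (CPM) of the 10 genes in every library, by group and ventricle (RV blue, LV orange), where bars mark mean and SD. For Ccng1 the cKO libraries lie below WT (170 to 443 CPM against 747 to 1101 CPM in RV) and for Phlda3 above it in both ventricles.

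Hearts without Pkp2 were compared with WT first. Of the 9 genes tested, cKO had 6 called higher and 1 called lower in RV, and 5 called higher and 2 called lower in LV, relative to WT (edgeR quasi-likelihood F test, adjusted p below 0.05). Over all genes tested the share called higher was 22.0% in RV and 23.6% in LV, and the share called lower was 20.3% in RV and 23.0% in LV. The median log2 fold change of the 9 genes was 0.65 in RV and 1.09 in LV, against 0.02 and 0.05 over all genes, and this count includes Bbc3, which passed the filter through the cKO libraries. Calls were made in both directions, and Mdm2 was called in neither ventricle.

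Cdkn1a (chr17:29309936-29319701), whose product p21 inhibits cyclin-dependent kinases, rose in both ventricles. In cKO RV its levels were 19.9, 30.6, 35.6 and 53.3 CPM, and WT RV libraries held 2.40 to 13.8 CPM (median 10.7). In cKO LV they were 15.7, 22.4, 34.1 and 49.7 CPM, and WT LV libraries held 8.30 to 26.1 CPM (median 10.2). All 4 cKO libraries lay above all WT libraries in RV, and the ranges overlapped in LV. The log2 fold change was 1.90 in RV (SE 0.32, adjusted p = 0.000236) and 1.24 in LV (SE 0.32, adjusted p = 0.00479). Under the unequal-variance test of log2(TPM + 1) the LV call was lost (adjusted p = 0.126).

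Phlda3 (chr1:135693809-135697686) encodes a small pleckstrin-homology protein that competes with Akt for membrane lipids and is a p53 target. It was measured at 13.3, 13.4, 14.3 and 20.3 CPM in cKO RV and at 0.921 to 7.85 CPM (median 3.73) in WT RV. In LV the cKO libraries held 6.62, 7.31, 11.3 and 11.6 CPM, and WT libraries 1.60 to 6.12 CPM (median 3.46). The groups did not overlap in either ventricle. On the log2 scale the rise of Phlda3 was 1.801 (SE 0.35, adjusted p = 0.000726) for RV and 1.35 (SE 0.31, adjusted p = 0.00244) for LV.

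Ccng1, whose product cyclin G1 binds the phosphatase PP2A and acts on Mdm2, went the other way. In cKO RV it was measured at 170, 206, 433 and 443 CPM, and in WT RV at 747 to 1101 CPM (median 843). In cKO LV the values were 192, 219, 375 and 498 CPM, against 1142 to 1968 CPM (median 1595) in WT LV. Each cKO library lay below every WT library of the same ventricle. The log2 fold change was -1.48 in RV (SE 0.24, adjusted p = 0.000207) and -2.25 in LV (SE 0.25, adjusted p = 8.67e-06), a 4.75-fold lower level in LV. The unequal-variance test of log2(TPM + 1) did not call Ccng1 in RV (adjusted p = 0.0732) or LV (adjusted p = 0.0513). In cKO, Ccng1 and the cardiomyocyte markers were lower, while Cdkn1a and Phlda3, which like Ccng1 are listed as p53 targets, were higher. A link between Ccng1 and these markers was not tested.

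The Trp53 transcript itself (chr11:69469669-69482701) was higher in cKO. Its levels were 29.4, 31.7, 33.1 and 38.0 CPM in cKO RV and 20.2 to 32.1 CPM (median 22.4) in WT RV. In LV, 31.1, 32.5, 33.7 and 33.8 CPM were measured in cKO against 11.7 to 26.5 CPM (median 16.9) in WT. The groups overlapped in RV, where 2 of 4 cKO libraries lay above all WT libraries, and did not overlap in LV. The rise of Trp53 was 0.54 on the log2 scale for RV (SE 0.13, adjusted p = 0.00414) and 0.84 for LV (SE 0.18, adjusted p = 0.00166). Abundance of the transcript does not report the activity of p53, which is set largely by stability of the protein.

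Mdm2, both antagonist and target of p53, was not called. The cKO libraries held 61.6, 66.1, 79.0 and 113 CPM in RV and 69.1, 78.3, 105 and 144 CPM in LV, and WT libraries 77.0 to 101 CPM (median 85.4) in RV and 78.5 to 120 CPM (median 104) in LV. The cKO libraries lay on both sides of the WT range, and the highest of each ventricle was PKP2_HBSS_2006_RV or PKP2_HBSS_2006_LV, from 1 animal. The log2 fold change was -0.03 in RV (SE 0.14, adjusted p = 0.890) and -0.00327 in LV (SE 0.17, adjusted p = 0.991).

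Bax (chr7:45111015-45116325) and Bbc3 (chr7:16042318-16052130) encode members of the BCL2 family that promote cell death. Bax held 9.10, 9.74, 12.6 and 14.97 CPM in cKO RV and 6.22 to 9.00 CPM (median 7.82) in WT RV, without overlap, and rose by 0.65 (SE 0.17, adjusted p = 0.00737). On log2(TPM + 1) the RV difference was 0.35 and was not called by limma (adjusted p = 0.203) or the unequal-variance test (adjusted p = 0.356). In LV it was measured at 7.34, 8.69, 10.7 and 12.4 CPM in cKO and at 0 to 7.92 CPM (median 4.27) in WT. The single WT LV library at 0, WT_HBSS_5823_LV, set much of the spread there. With it the LV difference of 1.09 was not called (SE 0.53, adjusted p = 0.107), and without it the difference was 0.92 (adjusted p = 0.0163).

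Bbc3 was sparse. It held 1.64, 1.75, 2.37 and 4.79 CPM in cKO RV against 0.248 to 1.96 CPM (median 0.737) in WT RV, and 0.749, 1.17, 2.20 and 2.22 CPM in cKO LV against 0 to 1.42 CPM (median 0.288) in WT LV. The ranges overlapped in both ventricles. The fitted difference was 1.62 in RV (SE 0.52, adjusted p = 0.0207) and 2.02 in LV (SE 0.74, adjusted p = 0.0360). The RV call was lost without the cKO library PKP2_HBSS_2052_RV (adjusted p = 0.136), with effective length offsets (1.27, adjusted p = 0.0678), with limma (0.71, adjusted p = 0.0787) and under the unequal-variance test of log2(TPM + 1) (adjusted p = 0.107). The LV call was lost without an expression filter (2.01, adjusted p = 0.0675) and without any 1 of 5 libraries (PKP2_HBSS_2006_LV, PKP2_HBSS_2052_LV, PKP2_HBSS_3217_LV, WT_HBSS_2040_LV or WT_HBSS_5823_LV), with adjusted p between 0.0519 and 0.1.

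The 2 GADD45 genes, which encode small stress proteins that bind PCNA, p21 and the kinase MEKK4, differed from each other. Gadd45b (chr10:80764523-80768038) was measured at 4.98, 6.44, 7.62 and 14.3 CPM in cKO RV and at 2.03 to 4.08 CPM (median 2.59) in WT RV, without overlap. In LV it held 2.25, 3.18, 5.35 and 11.6 CPM in cKO and 0.866 to 4.26 CPM (median 1.95) in WT. The highest value of each ventricle belonged to the animal of PKP2_HBSS_2006_LV. The rise of Gadd45b was 1.65 for RV (SE 0.28, adjusted p = 0.000250) and 1.31 for LV (SE 0.44, adjusted p = 0.0237), and without PKP2_HBSS_2006_LV the LV difference was 0.68 (adjusted p = 0.237). Under the unequal-variance test of log2(TPM + 1) the call was lost in RV (adjusted p = 0.105) and in LV (adjusted p = 0.273).

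Gadd45a (chr6:67012070-67014441), the member of the pair that is a classical p53 target, did not rise. Its cKO libraries held 2.37 to 5.17 CPM in RV and 2.75 to 4.98 CPM in LV, and WT libraries 2.61 to 7.13 CPM (median 5.73) and 3.32 to 7.98 CPM (median 7.10). The RV difference of -0.33 was not called (SE 0.29, adjusted p = 0.386). In LV Gadd45a was called lower by a narrow margin (log2 fold change -0.69, SE 0.27, adjusted p = 0.0487), and this call was lost in 5 of 8 alternative analyses.

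Cdkn2a, sparse as given above, was measured at 1, 4, 8 and 14 estimated counts in the 4 cKO RV libraries and at 3, 6, 9 and 14 in the 4 cKO LV libraries. In CPM these were 0.0876 to 1.53 in RV and 0.392 to 1.47 in LV, and WT libraries held 0 to 0.778 and 0 to 0.577 CPM, so that the ranges overlapped in both ventricles. At this depth no difference in the senescence gene Cdkn2a was testable. Transcripts of p16INK4a and p19ARF were not counted apart.

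The 114 other genes of the pathway, in 7 lists, were measured in the same fits. Among 17 tested p53 regulators and relatives, 2 were called in RV (1 higher, 1 lower) and 5 in LV (3 higher, 2 lower). The checkpoint kinase gene Chek1 rose in both (1.68 and 2.25 on the log2 scale). Hipk2 and Rchy1, which encode a p53 kinase and a ubiquitin ligase, fell in LV (both by 0.65) and were at -0.14 and -0.13 in RV without a call. Mdm4, the relative of Mdm2, was higher in LV only (0.34, and -0.28 without a call in RV), and Cop1, another ubiquitin ligase, was lower in RV only (-0.38, and -0.15 without a call in LV).

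Other p53 targets moved in both directions: 10 were higher and 6 lower of 27 tested in RV, and 10 and 5 in LV. These counts include Gtse1 in RV and Gdf15 and Pmaip1 in LV, all called higher. These passed the filter with the cKO libraries but not in WT libraries alone, so their part is a description. Apaf1, which encodes the scaffold of the apoptosome, rose by 1.04 in RV and 1.39 in LV, and Zmat3 by 0.88 and 0.60. Perp, a desmosomal and p53-induced membrane protein gene, was lower (-0.91 in RV and -1.92 in LV). Tigar (-0.96 and -1.44), which lowers glycolytic flux, Rrm2b (-0.93 and -1.06), a subunit of ribonucleotide reductase, and the adenylate kinase gene Ak1 (-1.12 and -1.69) were also lower. Each of these 6 genes was called in both ventricles. The remaining 11 tested in RV and 12 in LV were not called, and over all genes the shares called higher and lower were those given above.

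Among other cyclin-dependent kinase inhibitors and pocket proteins, 2 of 6 were higher in RV, 1 of 6 was higher in LV and none was lower. Rbl1 rose in both (1.10 and 1.33), and Cdkn2c in RV (0.98, and 0.19 without a call in LV). Cdkn1c was at -0.73 (adjusted p = 0.0563) and -0.51 and was not called. In the BCL2 family and caspase list 4 were higher and 3 lower of 17 in RV, and 6 and 3 of 16 in LV. By comparison, 22.0% of all genes tested in RV were called higher and 20.3% lower, against 23.6% and 23.0% for LV. Whether this list or the kinase inhibitor list differed from all genes was not tested. Bid (1.24 and 2.29), Casp8 (0.98 and 1.25) and Bmf (1.15 and 1.14), which promote cell death, rose in both ventricles, and Bcl2l1, which protects from it, rose in LV (0.49, and -0.03 without a call in RV). Cycs and Diablo, the mitochondrial proteins released during apoptosis, were lower in both (Cycs -1.27 and -2.20, Diablo -0.65 and -0.78).

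Of 7 stress genes related to GADD45, 2 were higher in RV, and 1 was higher and 1 lower in LV. Gadd45g, the third GADD45 gene, rose in both (1.10 and 1.51), Atf3 rose in RV (1.60, and 1.09 without a call in LV), and Gadd45gip1, whose product binds GADD45 proteins, was lower in LV (-0.87, and -0.03 without a call in RV). Among senescence-associated secretory and marker genes 9 were higher and 1 lower of 16 in RV, and 10 of 16 were higher and none lower in LV. The stress and senescence counts stand beside the same shares of all genes as the BCL2 family list, and a difference from those shares was not tested. Mmp12 (3.88 and 3.83), a macrophage elastase gene, Plaur (1.94 and 2.97) and Igfbp7 (1.51 and 1.56) rose in both. Lmnb1, which encodes lamin B1 and is known for its loss in senescent cells, rose by 2.23 and 1.72. Of other markers in this list, Glb1 rose by 0.89 and 0.62, and Hmgb1 was lower in RV (-0.43, and -0.12 without a call in LV). Whether cells were senescent was not tested. Igfbp3 was at -0.52 in RV without a call and rose by 0.42 in LV.

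Proliferation genes, which p21 is known to hold down, were higher in cKO alongside Cdkn1a. In RV 13 of 14 tested were higher and in LV 10 of 13, with none lower. Over all genes 22.0% were called higher in RV and 23.6% in LV. Ccnb1, Cdk1, E2f1, Mcm5, Ccne1, Mybl2 and, in RV, Aurkb passed the filter here but not in WT libraries alone. The filter can favour their rise, so their part in these counts and their values are a description. Ccna2 rose by 3.71 and 2.93, Ccnb1 by 3.65 and 3.58, Mki67 by 3.36 and 3.39, and Top2a by 3.46 and 3.48. Pcna rose by 0.91 in RV, and its LV difference of 0.65 was not called.

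**Figure D2:**
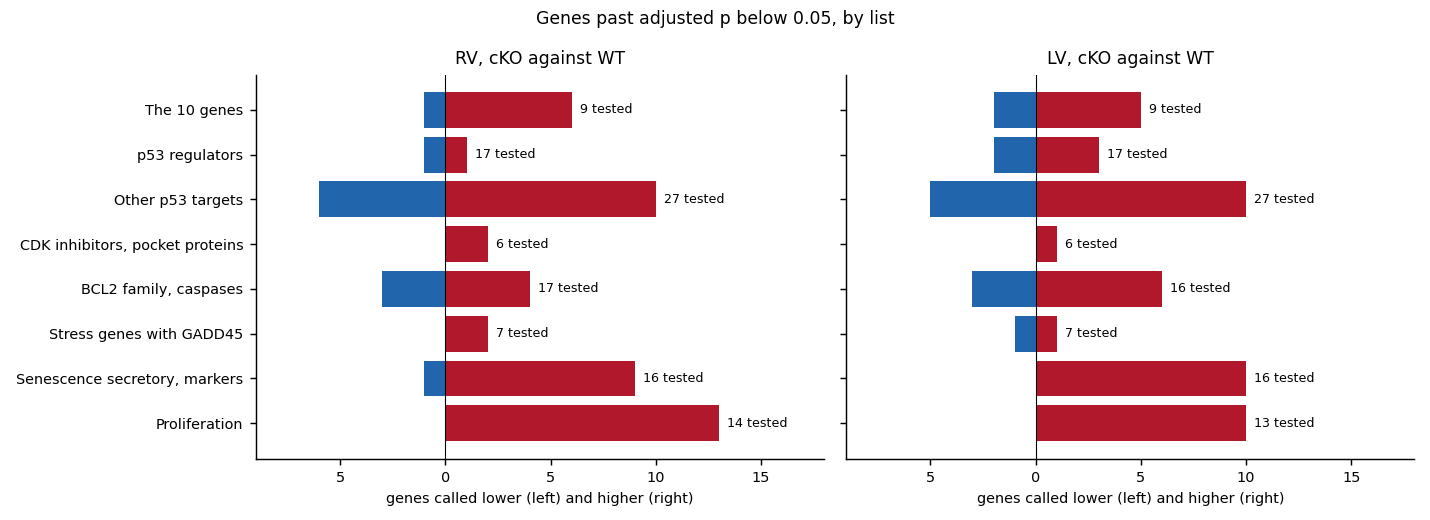
Number of genes called lower (blue, left) and higher (red, right) in cKO than in WT in the 10 genes and in 7 related lists, with the number tested beside each bar. Other p53 targets extend to both sides (10 higher and 6 lower in RV), and proliferation genes to the right (13 of 14 in RV). Some genes in these lists passed the filter through the cKO libraries, as described in the text.

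The second question was how far animals with the vector differed from WT. In RV, AAV_3E13 had 2 of 8 tested genes called (21.8% of all genes), AAV_1E14 had 3 of 8 (29.5%) and AAV_1E14_2.5wk had 3 of 8 (36.3%). In LV the counts were 4 of 8 for AAV_3E13 (39.2% of all genes), 0 of 8 for AAV_1E14 (0.00750%) and 0 of 8 for AAV_1E14_2.5wk (1.49%). In AAV_1E14 LV no member had an unadjusted p under 0.05, and DESeq2 and limma called 0. In AAV_1E14_2.5wk LV 4 had an unadjusted p under 0.05, DESeq2 called 2 (Cdkn1a and Phlda3) and limma 1 (Phlda3). Bbc3 and Cdkn2a were below the filter in these comparisons, and nothing particular to the 10 genes can be read from counts this close to those of all genes.

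Ccng1 was above WT in the RV of all 3 vector groups. Levels ranged from 1022 to 1693 CPM (median 1321) in AAV_3E13 and from 1329 to 1762 CPM (median 1547) in AAV_1E14_2.5wk, and the AAV_1E14 libraries held 1401, 1425, 1687, 1710 and 1938 CPM. Both high-dose groups lay wholly above WT RV (747 to 1101 CPM), and the AAV_3E13 range overlapped it. The log2 fold changes were 0.55 (SE 0.11, adjusted p = 0.00195), 0.84 (SE 0.12, adjusted p = 0.000285) and 0.76 (SE 0.11, adjusted p = 8.58e-05) for AAV_3E13, AAV_1E14 and AAV_1E14_2.5wk.

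In LV the picture for Ccng1 was different. AAV_3E13 libraries held 488 to 1010 CPM (median 751), all below WT LV (1142 to 1968 CPM), and the log2 fold change was -0.98 (SE 0.15, adjusted p = 4.85e-05). AAV_1E14 libraries held 1186, 1250, 1319, 1328 and 1528 CPM and AAV_1E14_2.5wk libraries 1015 to 1531 CPM (median 1277). The latter groups overlapped with WT, and their differences of -0.21 and -0.25 were not called (adjusted p = 0.928 and 0.292).

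Cdkn1a was called above WT by edgeR in 2 of the 6 vector groups and ventricles. In AAV_1E14_2.5wk RV it ranged from 12.0 to 20.5 CPM (median 17.6) against 2.40 to 13.8 CPM in WT, which was higher by 0.81 on the log2 scale (SE 0.25, adjusted p = 0.0184). In AAV_3E13 LV it ranged from 13.03 to 49.8 CPM (median 19.6) against 8.30 to 26.1 CPM, which was higher by 0.84 (SE 0.27, adjusted p = 0.0171). Both ranges overlapped with WT. The LV call was lost without the AAV_3E13 library PKP2_m3e13_2048_LV, the highest at 49.8 CPM (0.58, adjusted p = 0.0524). In AAV_3E13 RV (0.76, adjusted p = 0.0608) and AAV_1E14_2.5wk LV (0.79, adjusted p = 0.118) Cdkn1a was not called, and in AAV_1E14 it was at 0.30 in RV and 0.38 in LV without a call. The AAV_3E13 RV difference was called by DESeq2 (adjusted p = 0.0347), limma (adjusted p = 0.0273) and the unequal-variance test (adjusted p = 0.0499) and with effective length offsets (adjusted p = 0.0489), and that in AAV_1E14_2.5wk LV by DESeq2 (adjusted p = 0.0455).

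Phlda3 was called by edgeR in AAV_3E13 LV, where it ranged from 3.87 to 12.8 CPM (median 8.01) against 1.60 to 6.12 CPM in WT (log2 fold change 1.17, SE 0.27, adjusted p = 0.00220). In AAV_1E14_2.5wk it ranged from 4.73 to 12.3 CPM (median 7.14) in LV, and the difference of 1.06 missed the threshold (adjusted p = 0.0661), while 2 other tests called it (DESeq2 adjusted p = 0.0166, limma adjusted p = 0.0482). In RV of the same group it ranged from 3.70 to 10.9 CPM (median 6.84), and the difference of 0.66 was not called by edgeR (adjusted p = 0.129). It was called there with effective length offsets (0.89, adjusted p = 0.0460), by limma (0.98, adjusted p = 0.0245) and by the unequal-variance test on log2(TPM + 1) (0.98, adjusted p = 0.0374).

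Trp53 differed between ventricles in its position relative to WT. It was higher in AAV_3E13 LV, with 19.8 to 31.0 CPM (median 26.3) against 11.7 to 26.5 CPM and overlapping ranges (log2 fold change 0.52, SE 0.15, adjusted p = 0.0101). It was lower in AAV_1E14 RV, with 11.8, 11.9, 16.5, 16.7 and 16.8 CPM against 20.2 to 32.1 CPM (log2 fold change -0.70, SE 0.14, adjusted p = 0.00185). In the latter all 5 libraries lay below all WT libraries.

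The other calls against WT were few. Gadd45b was lower in AAV_3E13 RV, with 0.271 to 2.89 CPM (median 0.953) against 2.03 to 4.08 CPM (log2 fold change -1.23, SE 0.35, adjusted p = 0.0175). Bax was lower in AAV_1E14 RV (-0.47, adjusted p = 0.0333), a call lost in 6 of 9 alternative analyses. Mdm2 was higher in AAV_1E14_2.5wk RV, with 95.6 to 106 CPM against 77.0 to 101 CPM, a small difference (0.25, SE 0.06, adjusted p = 0.00552) that was not called once effective transcript lengths were taken into account (0.17, adjusted p = 0.139). The effective length is the number of bases from which a fragment can start, as estimated for each library by the quantification, and it enters the fit as an offset. Gadd45a was called in no vector group, its means lying between 3.68 and 5.51 CPM.

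Both sparse genes were below the filter of the edgeR fits against WT in the vector groups. Under alternatives that keep such genes, Bbc3 was called below WT in AAV_1E14 RV by DESeq2 (-2.46, adjusted p = 0.0189), without an expression filter (-2.34, edgeR adjusted p = 0.0398) and with all groups in one fit (-2.36, edgeR adjusted p = 0.00873). The last fit held the cKO libraries, through which Bbc3 passes the filter, so its call supports nothing. Counts of Bbc3 were 0 to 3 per library in AAV_1E14 RV and 2 to 14 in WT RV. Bbc3 averaged 0.484 ± 0.324 CPM in RV and 1.05 ± 0.652 CPM in LV of AAV_3E13 (SD, n = 8). In AAV_1E14 the means were 0.161 ± 0.151 and 0.556 ± 0.565 CPM (n = 5), and in AAV_1E14_2.5wk 0.564 ± 0.362 and 1.18 ± 0.709 CPM (n = 6). All lay below the means of 2.64 CPM in cKO RV and 1.58 CPM in cKO LV, with ranges that overlapped in LV. Cdkn2a averaged 0.248 to 0.587 CPM over the vector groups and ventricles, with at least 1 library at 0 in all but AAV_1E14 RV.

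The cell type markers differed from WT in some of the same groups. In AAV_3E13 LV all 6 cardiomyocyte markers were called lower (21707 to 28916 CPM summed, against 36675 to 43992 CPM) and all 6 macrophage and all 6 fibroblast markers higher. In AAV_1E14 LV none of these 18 markers was called. In AAV_1E14 RV 5 of 6 cardiomyocyte markers were called higher and 1 lower, and in AAV_1E14_2.5wk RV 4 of 6 fibroblast and 3 of 6 macrophage markers were called higher. Summed fibroblast markers held 1386 to 2544 CPM in AAV_3E13 RV (WT RV 686 to 1247) and 904 to 2075 CPM in AAV_1E14_2.5wk LV (WT LV 811 to 1151). Macrophage markers held 311 to 750 CPM (WT RV 187 to 332) and 250 to 415 CPM (WT LV 167 to 294) in the same order. In RV, 5, 6 and 6 of 6 endothelial markers were called lower in AAV_3E13, AAV_1E14 and AAV_1E14_2.5wk. Their part in the values of the 10 genes was not tested.

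**Figure D3:**
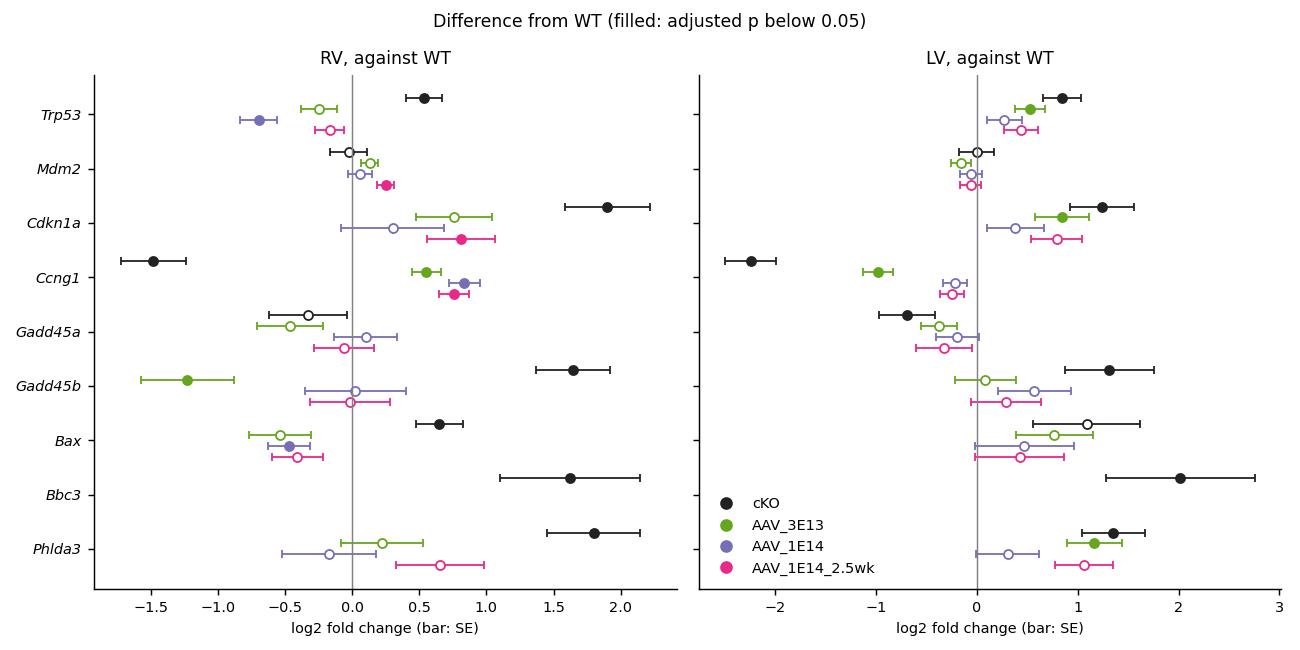
Log2 fold change against WT (points, with bars for the SE) of 9 genes in cKO and the 3 vector groups, for RV (left) and LV (right), with filled points for adjusted p below 0.05. Ccng1 lies at -1.48 and -2.25 in cKO and between 0.55 and 0.84 in the RV of the vector groups, and Cdkn1a and Phlda3 lie furthest right in cKO RV at 1.90 and 1.801. Cdkn2a is not drawn, and Bbc3 passed the filter against WT in cKO alone.

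Among related genes, Zmat3 was above WT in more than 1 vector group. This p53 target, which encodes a zinc finger RNA-binding protein, was higher in AAV_3E13 RV (0.51), AAV_1E14_2.5wk RV (0.52) and AAV_1E14_2.5wk LV (0.49). In AAV_1E14 LV none of the genes in the 7 lists was called. Perp was lower in AAV_3E13 LV (-1.005) and higher in the RV of all 3 groups (0.49, 0.90 and 0.82 in AAV_3E13, AAV_1E14 and AAV_1E14_2.5wk), as Ccng1 was. Tigar was lower in AAV_3E13 LV (-0.67) and higher in AAV_1E14 RV (0.62) and AAV_1E14_2.5wk RV (0.55).

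The vector groups were then set against untreated cKO. These 3 comparisons share the cKO libraries with each other and with the comparison against WT, and therefore do not give separate support. In RV each vector group had 1 of 9 genes called higher and 6 called lower than in cKO. Over all genes, AAV_3E13 had 19.4% called higher and 22.7% lower, AAV_1E14 had 24.2% and 26.4%, and AAV_1E14_2.5wk had 22.6% and 25.2%. The gene called higher was Ccng1 and those called lower were Trp53, Cdkn1a, Bax, Bbc3, Gadd45b and Phlda3 in each case, while Mdm2 and Gadd45a were not called. Bbc3 passed the filter in these fits through the cKO libraries, so its place in the count and its values are a description and support nothing. Without the cKO library PKP2_HBSS_2006_RV, Mdm2 was called higher than in cKO in AAV_3E13 (0.39, adjusted p = 0.0150) and AAV_1E14_2.5wk (0.53, adjusted p = 0.00186).

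Ccng1 was higher than in cKO RV by 2.05 (SE 0.26), 2.37 (SE 0.30) and 2.27 (SE 0.28) on the log2 scale in AAV_3E13, AAV_1E14 and AAV_1E14_2.5wk, the lowest vector library holding 1022 CPM and the highest cKO library 443 CPM. Phlda3 was lower, at 3.31 to 9.60 CPM in AAV_3E13, 3.20 to 4.95 CPM in AAV_1E14 and 3.70 to 10.9 CPM in AAV_1E14_2.5wk, against 13.3 CPM or more in cKO (log2 fold changes -1.57, -1.92 and -1.11). No vector library overlapped with cKO for either gene.

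Trp53 gave log2 fold changes of -0.77, -1.18 and -0.67 in the same order, Bax -1.17, -1.06 and -1.02, and Bbc3 -2.45, -3.96 and -2.26. For these 3 genes too the vector and cKO ranges did not overlap in RV, which for Bbc3 the filter favours. The share of all genes without overlap was not counted, here or elsewhere, so statements on overlap are a description only. The Bax calls were lost under the unequal-variance test of log2(TPM + 1) in all 3 groups (adjusted p = 0.125, 0.108 and 0.217) and with limma in AAV_3E13 (-0.71, adjusted p = 0.0843) and AAV_1E14_2.5wk (-0.54, adjusted p = 0.138). Cdkn1a gave -1.13, -1.55 and -1.05, with overlapping ranges. The AAV_3E13 call for Cdkn1a was lost without the cKO library PKP2_HBSS_2006_RV (-0.85, adjusted p = 0.0544). Gadd45b gave -2.86, -1.57 and -1.63, and the AAV_1E14 call was lost without the same cKO library (-1.17, adjusted p = 0.0983). In RV the largest edgeR adjusted p among the 21 calls was 0.0272, for Gadd45b in AAV_1E14. Under the unequal-variance test Cdkn1a was lost in AAV_3E13 and AAV_1E14_2.5wk (adjusted p = 0.156 and 0.195). Gadd45b was lost in AAV_1E14 and AAV_1E14_2.5wk (adjusted p = 0.115 and 0.112), and Phlda3 in AAV_1E14_2.5wk (adjusted p = 0.1). For Bbc3 the AAV_3E13 and AAV_1E14_2.5wk calls were lost (adjusted p = 0.0632 and 0.0839).

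Fewer members were called against cKO in LV. Ccng1 was higher in all 3 groups, by 1.22 in AAV_3E13 (SE 0.28, adjusted p = 0.0105), 2.01 in AAV_1E14 (SE 0.28, adjusted p = 0.000912) and 2.00 in AAV_1E14_2.5wk (SE 0.27, adjusted p = 0.000688). The shares of all genes called higher were 8.58%, 17.3% and 17.4%. At least 1 gene was called lower in each group, where the shares over all genes were 9.45%, 18.1% and 15.9%. These were Gadd45b in AAV_3E13 (-1.28, adjusted p = 0.0450), Trp53 (-0.60, adjusted p = 0.00639) and Phlda3 (-1.08, adjusted p = 0.0231) in AAV_1E14, and Bax in AAV_1E14_2.5wk (-0.67, adjusted p = 0.0360).

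Some of these LV calls were narrow, and all were lost under the unequal-variance test of log2(TPM + 1). By that test Ccng1 had adjusted p = 0.228 in AAV_3E13, 0.0835 in AAV_1E14 and 0.0773 in AAV_1E14_2.5wk. The edgeR call of Phlda3 in AAV_1E14 was lost when any 1 of 5 libraries was left out (adjusted p = 0.0504 to 0.0642). Gadd45b in AAV_3E13 was lost when any 1 of 10 of the 12 libraries was left out, with -0.62 without PKP2_HBSS_2006_LV (adjusted p = 0.357) as the smallest difference. Bax in AAV_1E14_2.5wk was lost without any 1 of 7 of the 10 libraries (adjusted p up to 0.107), among them PKP2_m1e14_2.5wk_5814_LV (-0.63, adjusted p = 0.0719). Cdkn1a, called higher in cKO LV than in WT, was called lower in no vector LV group against cKO (-0.45, -0.89 and -0.46, adjusted p = 0.414, 0.0847 and 0.297). Trp53 did not overlap with cKO in the LV of any vector group, and its differences in AAV_3E13 (-0.37, adjusted p = 0.0844) and AAV_1E14_2.5wk (-0.41, adjusted p = 0.0516) were not called. Both were called with effective length offsets (adjusted p = 0.0497 and 0.0387), and that in AAV_1E14_2.5wk also by DESeq2 (adjusted p = 0.0360), with RLE size factors (adjusted p = 0.0398), with all groups in one fit (adjusted p = 0.0439) and with mitochondrial genes kept (adjusted p = 0.0452).

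Cell type markers and related genes moved with these comparisons. All 6 macrophage markers were called lower than in cKO in each vector group and ventricle, and between 3 and 6 of the 6 cardiomyocyte markers were called higher. Proliferation genes were lower than in cKO in RV for 12 of 14 in AAV_3E13, 12 of 14 in AAV_1E14 and 13 of 14 in AAV_1E14_2.5wk. Among them are the genes named above that did not pass the filter in WT libraries alone, so these counts are a description. For the RV list counts here, the shares of all genes called lower were 22.7%, 26.4% and 25.2% in the same order. Those called higher were 19.4%, 24.2% and 22.6%. Senescence-associated genes were lower for 8 of 16, 9 of 15 and 8 of 16 and higher for 3, 2 and 2. Among other p53 targets 9 of 28, 11 of 27 and 9 of 28 were lower and 5 were higher in each, with Apaf1 among the lower (-1.02, -1.46 and -1.25) and Perp (1.42, 1.87 and 1.76), Tigar (1.24, 1.63 and 1.54), Rrm2b (1.22, 1.44 and 1.34) and Ak1 (1.25, 1.83 and 1.49) among the higher. The part of the markers in the results on the 10 genes was not tested.

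Dose was compared between the 2 groups treated early. In LV 1 of 8 genes was called (19.0% of all genes). This was Ccng1, which was higher at 1e14 than at 3e13 vg per kg by 0.76 on the log2 scale (SE 0.16, adjusted p = 0.00551), with no overlap between 1186 to 1528 CPM and 488 to 1010 CPM. Phlda3 was lower at the high dose by 0.87, which missed the threshold (adjusted p = 0.0556). In RV none of the 8 was called by edgeR (9.97% of all genes), 3 had an unadjusted p under 0.05, and 0 were called by DESeq2 and 1, Trp53, by limma on log2(TPM + 1).

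Time of dosing was compared at 1e14 vg per kg, where the time of the early dose is uncertain as described above. In RV Trp53 was higher after late than after early dosing, by 0.54 (SE 0.14, adjusted p = 0.0295), with 17.6 to 24.7 CPM (median 21.2) against 11.8 to 16.8 CPM and no overlap. It was the only call of 8 (8.93% of all genes), and the call was lost when any 1 of 6 libraries was left out (edgeR adjusted p up to 0.0713). Phlda3 was higher by 0.84 without a call (adjusted p = 0.0602). In LV no gene of the 10 was called, and none was called among all 13234 genes tested by edgeR (0%), where 964 genes and 1 of the 10 had an unadjusted p under 0.05. DESeq2 called 54 genes and limma 0, and neither called a member.

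Right and left ventricles were compared within animals by sign and between groups by a test of the interaction, which is the difference from WT in RV minus that in LV. The main fits held no term for the animal and so treated both libraries of an animal as independent. The animal as a replicate block was an alternative. In WT 2 of 8 genes were called between RV and LV (27.7% of all genes). Ccng1 was lower in RV, 747 to 1101 CPM against 1142 to 1968 CPM (log2 fold change -0.76, SE 0.11, adjusted p = 7.20e-05), and lower in RV in 9 of 9 animals. Mdm2 was lower in RV by a small amount (-0.24, adjusted p = 0.0456, lower in 7 of 9 animals). With the animal as a replicate block the Mdm2 call was lost (-0.23, adjusted p = 0.0687), as it was without WT_HBSS_5819_RV (adjusted p = 0.0791), and Trp53 was called higher in RV (0.39, adjusted p = 0.0372). The estimated effective length of Trp53 also differed between WT ventricles, with medians of 2200 bases in RV and 1802 in LV. This shift was not limited to Trp53. As a median over genes, log2 effective length relative to all libraries was 0.0195 to 0.0692 in WT RV libraries. It was -0.0840 to 0.0187 in WT LV and -0.0244 to -0.0112 in AAV_1E14_2.5wk RV, while the other vector RV groups overlapped with WT RV. The part of this shift in the results was tested only by the offsets. With the block and effective length offsets together Trp53 was not called, and Cdkn1a was called lower in RV (-0.55, adjusted p = 0.0436). In cKO no gene was called by edgeR (0.00726% of all genes), with 1 of 9 at an unadjusted p under 0.05 (Phlda3, higher in RV in 4 of 4 animals), and none by DESeq2 or limma.

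The order of the ventricles for Ccng1 in the vector groups was the reverse of that in WT. Vector animals also carried Cre and the Pkp2 deletion, and these cannot be told apart from the vector in a comparison with WT. The ratio of RV to LV level was 0.438 to 0.738 (median 0.599) in WT and 0.870 to 1.18 in cKO. In vector animals it was 1.17 to 2.57 in AAV_3E13, 1.08 to 1.37 in AAV_1E14 and 1.04 to 1.74 in AAV_1E14_2.5wk. RV was below LV in 9 of 9 WT animals and above it in 19 of 19 vector animals. The interaction of group with ventricle was 1.54 (SE 0.19, adjusted p = 2.90e-07), 1.05 (SE 0.17, adjusted p = 0.000246) and 1.03 (SE 0.17, adjusted p = 0.000185) on the log2 scale for AAV_3E13, AAV_1E14 and AAV_1E14_2.5wk against WT. With effective length offsets these values were 1.37, 0.93 and 0.88, all called. The interaction was called for 36.9%, 20.0% and 18.4% of all genes in the same order.

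Trp53 went the opposite way. It was higher in RV in 7 of 9 WT animals, and in 2 of 8 AAV_3E13, 0 of 5 AAV_1E14 and 1 of 6 AAV_1E14_2.5wk animals. Its interaction was -0.76 (SE 0.20, adjusted p = 0.00343), -0.97 (SE 0.22, adjusted p = 0.00283) and -0.59 (SE 0.20, adjusted p = 0.0357). The first 2 were also called with effective length offsets (-0.61 and -0.85), and the third was lost with them (-0.40, adjusted p = 0.211) and without the 3 libraries named at the start (-0.53, adjusted p = 0.0981).

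In AAV_3E13 3 further genes had an interaction. Gadd45b (-1.30, adjusted p = 0.0259) was below LV in RV in 8 of 8 animals, and above it in 7 of 9 WT animals. Bax (-1.30, adjusted p = 0.0286) was below LV in 7 of 8, and above it in 8 of 9 WT animals, and its call was lost with effective length offsets (-1.15, adjusted p = 0.0621). Mdm2 (0.30, adjusted p = 0.0434) was lost with the animal as a replicate block (0.30, adjusted p = 0.0725) and without WT_HBSS_5819_RV (adjusted p = 0.0644). In all 5 of 8 tested genes were called in AAV_3E13, 2 of 8 in AAV_1E14 and 2 of 9 in AAV_1E14_2.5wk, where 36.9%, 20.0% and 18.4% of all genes were.

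Loss of Pkp2 without the vector gave no called interaction with ventricle for the 9 genes (0.0272% of all genes). Ccng1 had the only unadjusted p under 0.05 (interaction 0.73, SE 0.33, adjusted p = 0.369). With the animal as a replicate block it was called (0.71, adjusted p = 0.0259), the fall in LV being the larger. DESeq2 and limma called none.

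**Figure D4:**
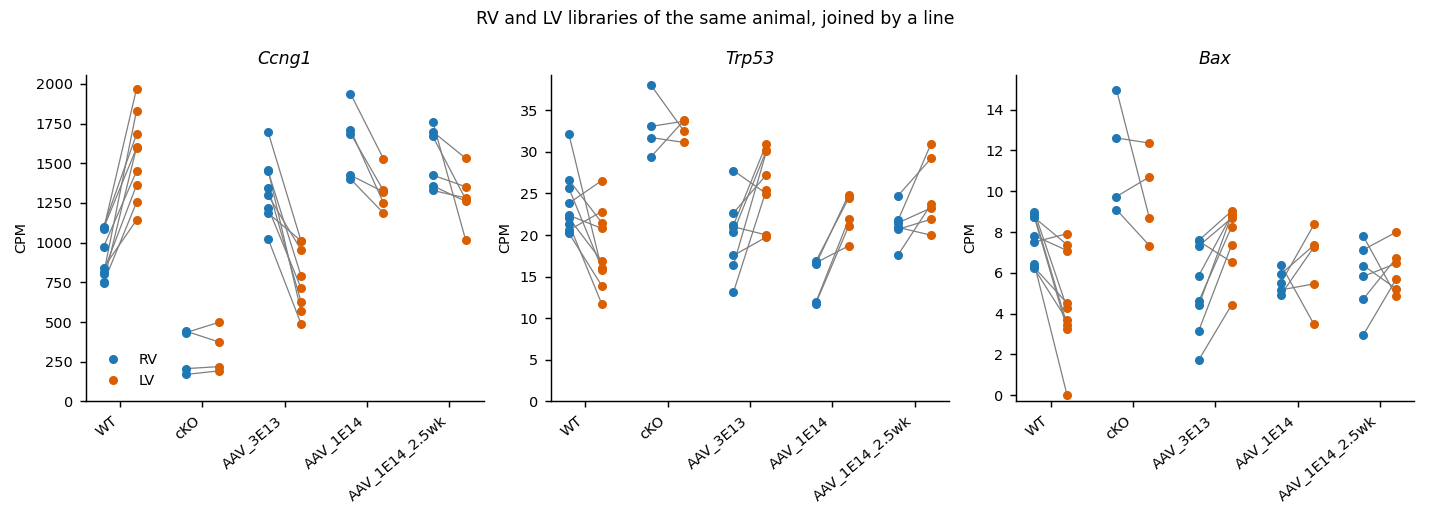
Ccng1, Trp53 and Bax (CPM) in the RV (blue) and LV (orange) library of each animal, joined by a line, by group. For Ccng1 the lines rise from RV to LV in 9 of 9 WT animals and fall in 19 of 19 vector animals, and for Trp53 RV lies above LV in 7 of 9 WT animals and in 3 of 19 vector animals.

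The patterns of the members over the 10 means of group and ventricle were compared with those of 13892 genes with a mean of at least 1 CPM, as a description with 10 points that share libraries. Ccng1 was most like Chpt1 (r = 0.999), Klhl31 (0.999) and Ptpn4 (0.998), and Phlda3 most like H2-D1 (0.980), Shisa5 (0.978) and Brsk1 (0.977). Cdkn1a was most like Gm4955 (0.976), Mxra7 (0.975) and Mt2 (0.974), and Trp53 most like Sptbn5 (0.984), Mapk7 (0.980) and Atoh8 (0.980). For Mdm2 the first was Akap17b (0.989), for Bax Tctn1 (0.966), for Gadd45b Dnajb1 (0.960) and for Gadd45a Tenm4 (0.899). No member was among the 3 most like any other. Between members, r was 0.916 for Cdkn1a and Phlda3, and -0.883 for Trp53 and Ccng1.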

How the data were processed

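RNA sequencing of 64 libraries (RV and LV of 32 mice) was quantified by the authors with Salmon 1.8.0 after fastp trimming, on GENCODE transcripts of GRCm39, and summed to genes with tximport. The deposited tables hold estimated counts per gene (not scaled to library size), TPM per gene and the mean effective transcript length in bases. The labels name poly(A) RNA and a kit made for depletion of ribosomal RNA, so the selection is uncertain. Columns were assigned to libraries by animal number and ventricle.

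Estimated counts were rounded, and 37 mitochondrially encoded genes (16.6% to 40.2% of counts, median 30.3%) and 1 unnamed row (at most 0.00136%) were left out. Depth then was 5.34 M to 10.2 M counts (median 7.93 M, with M for 1e6). Genes passing edgeR's expression filter in the groups compared were fitted with TMM factors and tested with the quasi-likelihood F test (edgeR 4.0.16, R 4.3.3), with p-values adjusted by Benjamini-Hochberg over all genes tested and a threshold of 0.05. The study's own unequal-variance test on log2(TPM + 1) served as an alternative because the deposited counts allow a count model. The SE is the log2 fold change divided by the square root of F. CPM used factors over all libraries, and levels between genes were compared on TPM. The edgeR fit of cKO against WT in RV was tested on simulated counts, with TMM and with RLE factors, and the other fits were not.

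RV and LV with the same number came from the same animal by label. Their deviations from group means correlated at -0.0392 to 0.551 over 13892 genes (median 0.120, above 0.1 in 20 of 32 animals), and values with the animal as a replicate block are given where they changed a call. Alternatives were RLE size factors, no expression filter, DESeq2 1.42.0, limma 3.58.1 on log2(TPM + 1) with genes of at least 1 TPM, the unequal-variance test, effective length offsets, mitochondrial genes kept, all groups in one fit, omission of the 3 libraries that stood apart, and omission of each library in turn. The block combined with effective length offsets was added after the data had been seen.

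The 10 genes, the 114 pathway genes in 7 lists and the 46 cell type markers were chosen with earlier results of these data known. Named were the 10 genes in every comparison, the 3 genes of each list with the smallest p in cKO against WT and up to 3 more that passed in a vector group in the same direction, and the 3 genes most like each of the 10 by Pearson's r. Glb1 and Hmgb1 were named in addition, as were list genes that passed the filter with the cKO libraries but not in WT libraries alone. In 3 cases a list gene stood under another symbol (Cop1 as Rfwd2, Tigar as 9630033F20Rik, Adgre1 as Emr1). Cdkn2a did not pass the filter in any comparison. One gene that this rule would name is not reported here.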

Additional observations from a re-analysis of the deposited data

Results flagged for a closer look

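In 8 of 100 combinations of a gene with a group and ventricle, 1 library stood apart from the others of its group, and chance alone flags about 1 in 20. Cdkn1a was 26.12 CPM in the WT library WT_HBSS_5803_LV (next 15.96 CPM), and Bbc3 was 1.419 CPM in the same library (next 0.600 CPM). Without that library, Cdkn1a in AAV_1E14_2.5wk LV was called above WT (0.99, edgeR adjusted p = 0.0261). Cdkn1a was 49.8 CPM in the AAV_3E13 library PKP2_m3e13_2048_LV (next 25.06 CPM), on which its call against WT rests. Phlda3 was 20.32 CPM in the cKO library PKP2_HBSS_3217_RV (next 14.27 CPM) and 9.603 CPM in the AAV_3E13 library PKP2_m3e13_5768_RV (next 5.831 CPM). Neither changed a Phlda3 call between groups within RV. With both ventricles of the latter animal left out, the AAV_3E13 interaction of Phlda3 with ventricle, otherwise not called, passed the threshold (-1.07, edgeR adjusted p = 0.0472).

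Cdkn2a stood apart in 3 libraries, at levels of a few counts, with 0.7777 CPM in the WT library WT_HBSS_13_RV (next 0.3019 CPM), 1.43 CPM in the AAV_1E14 library PKP2_m1e14_5726_LV (next 0.2701 CPM) and 1.145 CPM in the AAV_1E14_2.5wk library PKP2_m1e14_2.5wk_5814_LV (next 0.2486 CPM). The last is 1 of the pair of libraries whose sex-linked transcripts disagree.

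The difference from WT itself differed between RV and LV in 9 cases, by the interaction term of edgeR. For Ccng1 the RV minus LV values were 1.541 in AAV_3E13, 1.049 in AAV_1E14 and 1.031 in AAV_1E14_2.5wk, and for Trp53 they were -0.7602, -0.9685 and -0.5857 in the same order. In AAV_3E13 they were 0.3019 for Mdm2, -1.296 for Bax and -1.303 for Gadd45b. The adjusted p-values are given with the ventricle comparison, and causes were not tested.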

How the results depend on the processing

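Over 67 calls for the 10 genes, 497 of 572 values under an alternative kept the call, 75 fell below the threshold and 0 changed sign, and with a library or animal left out 756 of 843 kept it, 87 fell below and 0 changed sign. Causes of the changes were not tested. The number of genes called changed by over 1.5 times as follows. With the unequal-variance test it went from 7 to 3 for cKO against WT in both ventricles, from 7 to 4 (RV) and 2 to 0 (LV) for AAV_3E13 against cKO, from 3 to 0 for AAV_1E14 against cKO in LV, from 7 to 2 (RV) and 2 to 0 (LV) for AAV_1E14_2.5wk against cKO, and from 1 to 0 for late against early dosing in RV. With limma it went from 2 to 4 for AAV_3E13 against WT in RV, 0 to 1 for AAV_1E14_2.5wk against WT in LV, 2 to 1 for AAV_3E13 against cKO in LV, 7 to 3 (RV) and 2 to 1 (LV) for AAV_1E14_2.5wk against cKO, 0 to 1 for dose in RV, and 2 to 1 for WT ventricles and the AAV_1E14_2.5wk interaction. With DESeq2 it went from 0 to 2 for AAV_1E14_2.5wk against WT in LV and from 1 to 2 for dose in LV and late against early dosing in RV. Without an expression filter it went from 2 to 1 for AAV_3E13 and AAV_1E14_2.5wk against cKO in LV, WT ventricles and the AAV_1E14_2.5wk interaction, and from 5 to 3 for the AAV_3E13 interaction. With effective length offsets it went from 1 to 2 for late against early dosing in RV, 2 to 1 for WT ventricles and the AAV_1E14_2.5wk interaction, and 5 to 3 for the AAV_3E13 interaction. Without the 3 libraries that stood apart it went from 2 to 1 for AAV_1E14_2.5wk against cKO in LV and for WT ventricles. With the replicate block it went from 0 to 1 for the cKO interaction, and with block and effective length offsets together from 0 to 1 there and from 2 to 1 for the AAV_1E14_2.5wk interaction. Apart from the calls given in the report (Mdm2, Trp53 and Ccng1), the block alone changed no call.

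With 1 library or animal left out, the number called was 6 to 7 (RV) and 4 to 7 (LV) for cKO against WT, 2 to 3 and 3 to 5 for AAV_3E13 against WT, 2 to 3 and 0 to 0 for AAV_1E14, and 3 to 3 and 0 to 2 for AAV_1E14_2.5wk. Against cKO it was 7 to 7 and 1 to 2 for AAV_3E13, 6 to 7 and 2 to 3 for AAV_1E14, and 7 to 8 and 1 to 3 for AAV_1E14_2.5wk. For dose it was 0 to 1 and 1 to 2, for late against early dosing 0 to 2 and 0 to 0, for ventricles 1 to 3 in WT and 0 to 0 in cKO, and for interactions 0 to 0 in cKO, 3 to 6 in AAV_3E13, 2 to 2 in AAV_1E14 and 1 to 3 in AAV_1E14_2.5wk. The 4 calls for cKO LV came without PKP2_HBSS_2006_LV. Bax without the WT library WT_HBSS_5823_LV was called higher in AAV_3E13 LV than in WT (0.60, edgeR adjusted p = 0.0390) and in WT RV than in WT LV (0.60, edgeR adjusted p = 0.0389). Depth limited Cdkn2a and Bbc3, whose levels of a few counts per library allow no firm statement.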
